A study of Rattus norvegicus with 4 samples.

Results

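Vascular smooth muscle nuclei of the rat heart were picked from single-nucleus RNA sequencing of the infarct zone by the transcripts of 5 contractile genes. A nucleus was counted as smooth muscle when it carried at least 2 unique molecular identifiers (UMIs, 1 for each captured transcript molecule) of Myh11, at least 3 over Myh11, Lmod1, Cnn1, Acta2 and Tagln from more than 1 of them, at least 0.2% of all its UMIs in these genes, and none of the fibroblast gene Pdgfra. That held for 100 of 46590 kept nuclei. The study took heart tissue from Sprague Dawley rats as 1 sample each of a sham operation (Sham) and of myocardial infarction at 3 times (MI_1H, MI_6H and MI_24H). The treatment labels attach 1, 6 and 24 h to reperfusion, whereas the series text also describes ligations of those lengths, and these sources leave the meaning of the hours unresolved. How many animals a sample pools, and their age, is not given in the sources used here. All 4 samples lie in 1 matrix whose barcodes end in 1 to 4, and no source ties those endings to the samples. The libraries are therefore called 1 to 4, sham and infarct samples were not set against each other, and no p-value is given since each sample has a single library.

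Smooth muscle cells form the contractile coat of arteries and, more thinly, of veins. Calcium entering through voltage-gated channels activates myosin light chain kinase, which lets smooth muscle myosin pull on actin and narrow the vessel, while potassium channels and nitric oxide acting through cyclic GMP relax it. Pericytes, which sit on capillaries, belong to the same mural lineage and share many genes with smooth muscle. After injury, smooth muscle cells can lower their contractile genes and make matrix, a change called phenotypic modulation.

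The contractile genes of smooth muscle are classically controlled by serum response factor and its partner myocardin through a short element named the CArG box. The region before the Acta2 start is a textbook example, and it is shown with those of Ldb3 and Actg2, contractile genes outside the selection. The stretch shown held a matching element for Ldb3 and none for Actg2. The sequences are from RefSeq (assembly GRCr8, minus strand, 5′ to 3′) and end at the base before the annotated start. They lie at chr1:241172504-241172753 for Acta2, chr16:9924680-9924929 for Ldb3 and chr4:117594040-117594289 for Actg2, and capitals mark matches to CCNNNNNNGG with at least 5 of the 6 central letters A or T, a pattern that is its own reverse complement.
Acta2: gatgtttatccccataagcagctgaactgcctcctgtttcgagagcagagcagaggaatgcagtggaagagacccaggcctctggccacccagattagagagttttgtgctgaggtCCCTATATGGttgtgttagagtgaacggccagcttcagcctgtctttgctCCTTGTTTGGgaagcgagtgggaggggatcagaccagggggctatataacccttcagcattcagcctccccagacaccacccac
Ldb3: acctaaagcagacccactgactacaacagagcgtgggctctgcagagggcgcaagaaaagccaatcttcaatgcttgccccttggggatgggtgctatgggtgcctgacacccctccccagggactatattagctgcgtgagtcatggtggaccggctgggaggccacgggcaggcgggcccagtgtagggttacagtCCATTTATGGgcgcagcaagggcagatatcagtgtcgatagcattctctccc
Actg2: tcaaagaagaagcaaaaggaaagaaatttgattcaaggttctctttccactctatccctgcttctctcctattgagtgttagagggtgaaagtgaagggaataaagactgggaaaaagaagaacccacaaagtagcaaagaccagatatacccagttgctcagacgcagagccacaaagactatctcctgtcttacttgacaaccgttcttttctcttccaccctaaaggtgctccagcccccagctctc
The Acta2 elements start 134 and 84 bases before the gene start and the Ldb3 element 52 bases before it. Over windows of 300 bases around the start, the pattern was present for 9.42% of all 33469 windows of the table, for 8.53% of genes tested against the restricted pericytes described further on, and for 10 of 106 genes (9.43%) that were at least 2-fold above those pericytes in libraries 1, 3 and 4. Of the contractile gene list outside the selection, 2 of the 25 genes with a window (8%) held it, Ldb3 among them. A match is a match of letters only, and these shares lay close together. The Actg2 window surrounds a single annotated start, and sequence before any other start was not searched. It therefore does not show that Actg2 lacks such an element.

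Libraries 1 to 4 held 9013, 14603, 16453 and 6521 kept nuclei with medians of 609 to 2356 UMIs, and library 2 stood apart by its low depth. In all, 241 barcode sequences occurred in more than 1 library among the kept nuclei, 2 of them among smooth muscle nuclei. The smooth muscle nuclei were 30, 6, 14 and 50 in libraries 1 to 4. They carried 47816, 11388, 44216 and 153571 UMIs, so library 2 could show only abundant genes. Median depths of smooth muscle nuclei were 1199, 1638, 1752 and 2028 UMIs, against 1367, 609, 2044 and 2356 over all kept nuclei.

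The selected nuclei carried the set of genes that names them. Myh11, the heavy chain of smooth muscle myosin, stood at 9432, 3425, 3506 and 4994 CPM (UMIs of the gene scaled to a fixed total of UMIs in the class and library) in libraries 1 to 4, against 16.9 to 31.0 CPM over all other nuclei. Acta2, smooth muscle actin, stood at 1506, 263, 859 and 1087 CPM against 4.85 to 35.0 CPM in the other nuclei. Lmod1, an actin filament nucleator, was seen in 75 of the 100 nuclei, Acta2 in 79, Tagln (transgelin, an actin-binding protein) in 51 and Cnn1 (calponin, which restrains actomyosin) in 24. These values describe the selection and test nothing. The median nucleus held 9 Myh11 UMIs and the highest 71, 6 nuclei had exactly 2, and 8 nuclei with a single Myh11 UMI met every other condition. At the marker share, 19 members lay below 0.4% of UMIs and 22 nuclei between 0.1% and 0.2% stayed outside, while 21 nuclei were removed by Pdgfra alone.

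**Figure D1:**
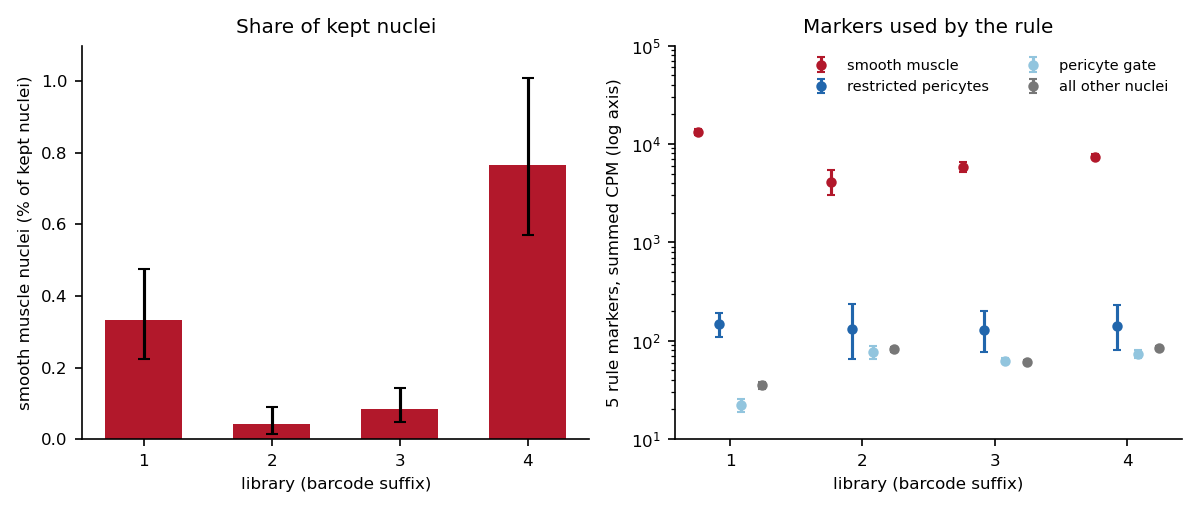
Share of kept nuclei that met the smooth muscle rule (left, %, bars with 95% Clopper-Pearson intervals) and summed CPM of the 5 genes of the rule (right, log axis, points with 95% Poisson intervals) by library, for smooth muscle nuclei, restricted pericytes, the pericyte gate and all other nuclei. Library 4 has the highest share, 0.767%, and library 2 the lowest, 0.0411%.

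Transcripts of other cell types were present in many of these nuclei. At least 3 UMIs over the markers of endothelial, cardiomyocyte, macrophage, neutrophil, lymphocyte or Schwann cells were found in 64 of the 100. Cardiomyocyte markers reached this in 45, neutrophil markers in 21, macrophage markers in 17 and endothelial markers in 16. Fibroblast markers reached it in 21 nuclei as well, but fibroblast and lymphatic endothelial markers did not count toward the 64. The 5 cardiomyocyte markers found in the gene table summed to 1548, 2283, 1696 and 1029 CPM in libraries 1 to 4, and none of the 5 was at 0. Endothelial markers summed to 1025, 527, 181 and 1543 CPM, macrophage markers to 62.7, 703, 1787 and 651 CPM, and neutrophil markers to 0, 0, 1108 and 560 CPM. Leaving out the 64 nuclei leaves 16, 2, 1 and 17 in libraries 1 to 4, and values over these 36 nuclei are given beside results on genes that cardiomyocytes or other classes also express. The share of RNA that did not come from the nucleus itself, estimated from the markers of other classes against the whole library, was 17.0, 46.1, 67.4 and 54.3% in smooth muscle of libraries 1 to 4, and 64.1, 46.7, 63.3 and 70.8% when cardiomyocyte markers were left out. In restricted pericytes the first estimate was 13.4, 50.7, 53.5 and 44.8%. For some comparisons this RNA was subtracted, and those values are given in the last section. Its part in the other results was not tested.

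Smooth muscle nuclei made up 0.333% of kept nuclei in library 1 (95% Clopper-Pearson interval 0.225 to 0.475%), 0.0411% in library 2 (0.0151 to 0.0894%), 0.0851% in library 3 (0.0465 to 0.143%) and 0.767% in library 4 (0.570 to 1.01%). Intervals here and below cover counting error only. Library 4 was highest and library 1 next, and the intervals of libraries 2 and 3 overlapped. With every nucleus thinned to 1000 UMIs the shares were 0.319, 0.147, 0.0801 and 0.809%, so libraries 4 and 1 kept their places while library 2, of which 2723 nuclei were deep enough, lay above library 3. Against restricted pericytes, a set defined further on, library 4 was highest too. Smooth muscle nuclei were 7.46% (5.09 to 10.5%), 5.88% (2.19 to 12.4%), 12.3% (6.88 to 19.8%) and 36.0% (28.0 to 44.5%) of smooth muscle plus restricted pericytes in libraries 1 to 4. Restricted pericytes leave out nuclei with markers of other classes, fibroblast and lymphatic endothelial ones aside. With the same filter on smooth muscle the shares were 4.12% (2.38 to 6.61%), 2.04% (0.248 to 7.18%), 0.990% (0.0251 to 5.39%) and 16.0% (9.63 to 24.4%). Library 4 was highest both ways, while library 3 rested on 1 nucleus. Whether tissue sampling, nuclear yield or loss of vessels moved these shares was not tested.

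Smooth muscle was compared with pericytes of the same library in 2 ways. The gate that came with the selection (under 2 Myh11 UMIs and at least 3 UMIs over Rgs5, Abcc9, Kcnj8 and Pdgfrb) held 5844 nuclei, and the data went against its name. Its cardiomyocyte markers summed to 21141, 7325, 3299 and 6281 CPM in libraries 1 to 4, and Ryr2, the cardiac calcium release channel, stood there at 9706, 3158, 1702 and 3697 CPM. A restricted set was therefore added after these values were seen. It asked for at least 0.2% of UMIs in the 4 pericyte genes and no Pdgfra. It also asked for under 3 UMIs over the markers of each of endothelial, cardiomyocyte, macrophage, neutrophil, lymphocyte and Schwann cells. Apart from Pdgfra, fibroblast and lymphatic endothelial markers were not filtered. The set held 657 nuclei, 372, 96, 100 and 89 by library. Rgs5, a regulator of G protein signalling used as a pericyte marker, stood at 1543, 512, 1310 and 1949 CPM in restricted pericytes, 84.9 to 151 CPM in the gate and 272, 0, 67.8 and 163 CPM in smooth muscle. Cardiomyocyte markers in restricted pericytes summed to 786 to 1511 CPM. Fibroblast markers there summed to 590, 1237, 1807 and 1519 CPM in libraries 1 to 4, against 251, 527, 746 and 762 CPM in smooth muscle. The part of fibroblast RNA in the comparisons below was not tested.

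A gene was called when the log2(CPM + 10) values differed by at least 2-fold, in library 4 alone (the only library with 50 nuclei of each class) or in each of libraries 1, 3 and 4. Against the gate in library 4, 468 of 14339 genes (3.26%) were higher in smooth muscle and 1234 (8.61%) lower. In libraries 1, 3 and 4 together 141 (0.983%) were higher and 232 (1.62%) lower. Against restricted pericytes in library 4, 676 of 6357 genes (10.6%) were higher and 695 (10.9%) lower, and in libraries 1, 3 and 4 these were 134 (2.11%) and 184 (2.89%). The calls made in 3 libraries shared 53 higher genes, 37.6% of the gate's and 39.6% of the restricted set's, and 25 lower genes, 10.8% and 13.6%. Both calls use the same smooth muscle nuclei. Against all other kept nuclei, 499 of 16805 genes (2.97%) were higher and 1285 (7.65%) lower in library 4, and 157 (0.934%) and 218 (1.3%) in libraries 1, 3 and 4. Library 4 alone gives larger counts, and its calls rest on 50 nuclei.

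Many contractile genes outside the selection were higher in smooth muscle than in restricted pericytes, and fewer were higher than in the gate. Of the 29 measured against restricted pericytes, 18 were higher in library 4 (10.6% of all genes were) and 16 in libraries 1, 3 and 4 (2.11% of all genes), with none lower. Of the 30 measured against the gate, 14 were higher in library 4 (3.26% of all genes), 1 was lower (8.61%) and the rest passed in neither direction, and 8 were higher in libraries 1, 3 and 4 (0.983%). The median member lay 1.79, 1.20 and 1.21 log2 units above restricted pericytes in libraries 1, 3 and 4, where the median of all genes lay at -0.19, -0.14 and -0.02. In library 2, with 6 nuclei, it lay at 0.59.

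Actg2, the actin of visceral and vascular smooth muscle, had 43, 0, 12 and 86 UMIs in smooth muscle, or 899, 0, 271 and 560 CPM. It had no UMI in the 657 restricted pericytes and 0.129 to 3.86 CPM in the gate. Over all libraries smooth muscle was thus at least 126-fold higher than restricted pericytes, taking 3 counts over the group as the floor. It was found in 48 of the 100 nuclei and in 1.03% of endothelial nuclei, whose median depth was 2076 UMIs against 1715, and 17.0% of its UMIs came from 1 nucleus. Actg2 was high in libraries 1, 3 and 4, and the upper 95% limit of its level in library 2 was 324 CPM.

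Mylk, the kinase that starts contraction by phosphorylating myosin light chain, stood at 2029, 702, 724 and 866 CPM in smooth muscle, and at 582, 119, 276 and 325 CPM in restricted pericytes. The UMIs counted were 2.96 times (95% Poisson interval 2.62 to 3.33) those that the pericyte level of each library would give, a measure called observed over expected below. Intervals of this measure cover the counting error of the smooth muscle UMIs only. They take the pericyte level as exact and so are too narrow, more so where pericyte UMIs were few. Mylk was higher in all 4 libraries. Csrp1, a LIM protein of actin bundles, stood at 1276, 176, 430 and 996 CPM against 137, 83.3, 148 and 140 CPM, with 6.60 observed over expected (5.78 to 7.50). Flna, an actin crosslinker, stood at 1318, 527, 724 and 736 CPM compared with 269, 357, 410 and 395 CPM, and reached 2.24 (1.95 to 2.56). Library 1 was highest for all of these 3 genes.

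Some contractile proteins are shared with heart muscle, and for Ldb3, a Z-disc protein, the comparator set the direction. In libraries 1, 3 and 4 smooth muscle stood at 836, 317 and 397 CPM, between 2500, 330 and 747 CPM in the gate and 181, 40.3 and 105 CPM in restricted pericytes. Cardiomyocytes stood at 2579, 776 and 938 CPM of Ldb3. Ldb3 was 3.65 times (3.02 to 4.37) the level expected from restricted pericytes in all nuclei. In the 36 nuclei, which held at most 2 UMIs over the cardiomyocyte markers, it was 4.88 times (3.52 to 6.60) that level.

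Synpo2, an actin-bundling protein, stood at 2907, 1229, 1289 and 1576 CPM against 199, 155, 108 and 61.5 CPM in restricted pericytes. Its observed over expected was 17.8 (16.2 to 19.5) in all nuclei and 21.9 (18.4 to 25.8) in the 36. Sorbs2, an adaptor protein of the actin cytoskeleton, reached 11.8 (10.9 to 12.9) and 13.4 (11.3 to 15.7). Tpm1, tropomyosin, reached 4.63 (4.30 to 4.99) and 6.95 (6.05 to 7.96). These are the same comparison in all nuclei and in a subset of them, not independent measurements.

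**Figure D2:**
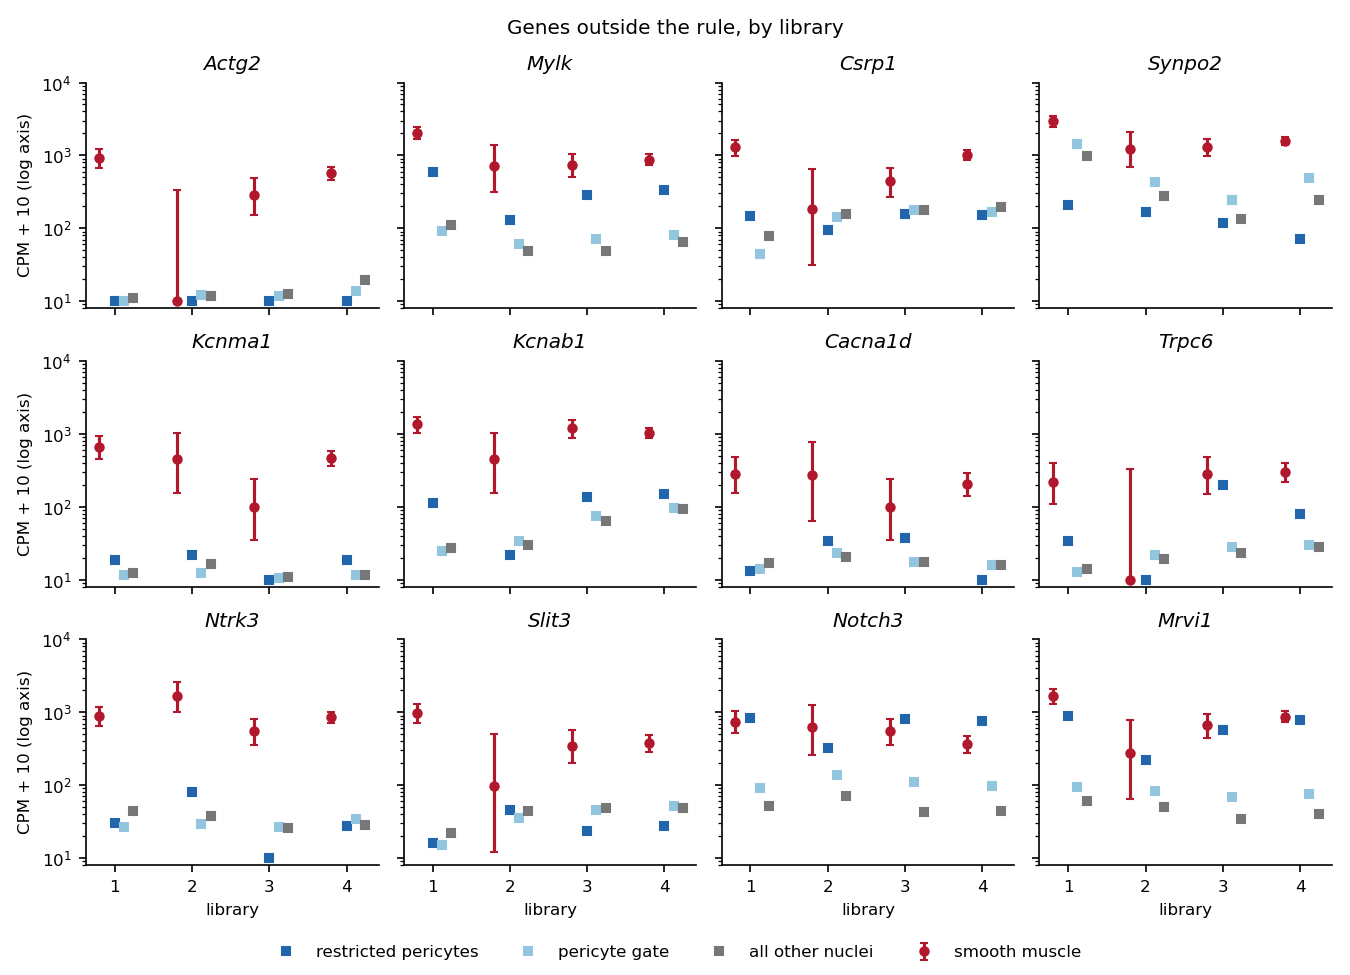
CPM + 10 (log axis) of 12 genes that the rule did not use, by library, in smooth muscle nuclei (red, with 95% Poisson intervals), restricted pericytes, the pericyte gate and all other nuclei. Actg2, Kcnma1, Kcnab1, Cacna1d, Ntrk3 and Slit3 lie above the 3 other groups in libraries 1, 3 and 4, while Mrvi1 lies within 2-fold of restricted pericytes in every library and Notch3 in library 4 stands at 352 CPM, below their 755 CPM.

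Among regulators of the contractile genes 1 of 13 measured members was higher than in restricted pericytes in libraries 1, 3 and 4, and none was lower (2.11% and 2.89% of all genes). In library 4 the counts were 1 higher and 2 lower, where 10.6% of all genes were higher and 10.9% lower. The higher gene was Myocd, myocardin, the partner of serum response factor. It stood at 481, 527, 294 and 788 CPM in smooth muscle against 81.8, 83.3, 33.6 and 35.1 CPM in restricted pericytes, with 13.9 observed over expected (11.8 to 16.2) and 12.4 (8.77 to 17.2) in the 36 nuclei. Cardiomyocytes, which also use Myocd, stood at 757, 234, 656 and 628 CPM. Serum response factor itself had 9 UMIs in all smooth muscle nuclei, and Klf4, a factor linked to loss of the contractile state, had 12, all in library 4 and from 6 nuclei. Gata6, a factor of smooth muscle and heart, stood at 0, 0, 67.8 and 45.6 CPM, with 0.982 observed over expected (0.471 to 1.80). Mef2c, a factor of muscle and endothelium, stood at 1192, 263, 769 and 951 CPM against 847, 321, 598 and 852 CPM.

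Several ion channels and their subunits were higher in smooth muscle. Against restricted pericytes 8 of 23 measured members were higher and 2 lower in library 4 (10.6% and 10.9% of all genes). Kcnma1, Kcnab1, Cacna1d and Slc8a1 were higher in libraries 1, 3 and 4, where 2.11% of all genes were. Against the gate 11 of 24 were higher and 4 lower in library 4 (3.26% and 8.61%). In libraries 1, 3 and 4 it was 8 higher and 2 lower (0.983% and 1.62%). Kcnma1, the pore of the large-conductance calcium-activated potassium channel that opposes constriction, stood at 648, 439, 90.5 and 456 CPM in smooth muscle. In restricted pericytes it stood at 8.77, 11.9, 0 and 8.78 CPM, and in all other nuclei at 0.852 to 6.59 CPM. It was seen in 37 of 100 smooth muscle nuclei, 0.761% of restricted pericytes and 0.331% of endothelial nuclei. Thinned to 1000 UMIs those shares were 25.3, 0.361 and 0.100%.

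Kcnab1, a cytosolic beta subunit of voltage-gated potassium channels, stood at 1338, 439, 1176 and 1009 CPM against 102, 11.9, 128 and 140 CPM in restricted pericytes, with 8.56 observed over expected (7.58 to 9.63). Cacna1d, an L-type calcium channel pore, stood at 272, 263, 90.5 and 195 CPM against 2.92, 23.8, 26.9 and 0 CPM. Cacna1c, the L-type pore that heart and vascular muscle share, stood at 920, 263, 588 and 716 CPM compared with 392, 309, 417 and 413 CPM and so differed less, by 1.76 (1.51 to 2.03). Kcnmb1, the smooth muscle beta subunit that partners Kcnma1, had 2 UMIs in all. Trpc6, a receptor-operated cation channel, stood at 209, 0, 271 and 286 CPM against 23.4, 0, 188 and 70.2 CPM, with 3.26 observed over expected (2.52 to 4.15). Ryr2 stood at 732, 439, 430 and 234 CPM compared with 532, 488, 87.3 and 132 CPM, and its 1.73 (1.40 to 2.11) went to 0.814 (0.433 to 1.39) in the 36 nuclei.

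For receptors of vasoactive signals and cyclic GMP genes the counts ran in opposite directions against the 2 comparators. Of 17 members measured against restricted pericytes 1 was higher and 5 were lower in library 4 (10.6% and 10.9% of all genes), and none was higher and 4 were lower in libraries 1, 3 and 4 (2.11% and 2.89%). Of 25 measured against the gate 7 were higher and 5 lower in library 4 (3.26% and 8.61%), and 4 higher and 1 lower in libraries 1, 3 and 4 (0.983% and 1.62%). The 4 lower than in restricted pericytes were Ednra, the endothelin receptor, Agtr1a, the main angiotensin II receptor, Adora2a, an adenosine receptor, and Rgs4, which shortens G protein signals. Ednra stood at 418, 263, 45.2 and 150 CPM in smooth muscle against 865, 452, 477 and 799 CPM in restricted pericytes, with 0.252 observed over expected (0.186 to 0.335) and 0.441 (0.265 to 0.688) in the 36 nuclei. Agtr1a had no UMI in smooth muscle and 35 in restricted pericytes, so it was at least 4.35-fold lower with 3 counts over the group as the floor. Adora2a had 2 UMIs where 24.6 were expected, and Rgs4 had 6 where 39.6 were expected.

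Some genes of cyclic nucleotide signalling were abundant in both mural classes. Gucy1a1, a subunit of the nitric oxide receptor, stood at 1673, 176, 339 and 456 CPM in smooth muscle and 1099, 167, 497 and 781 CPM in restricted pericytes. Its observed over expected was 0.850 (0.726 to 0.990) against restricted pericytes and 8.34 (7.12 to 9.70) against the gate. Mrvi1, a substrate of the cyclic GMP kinase that limits calcium release, stood at 1652, 263, 656 and 860 CPM and 885, 214, 564 and 773 CPM. It was seen in 83.0% of smooth muscle nuclei, 45.2% of restricted pericytes and 1.85% of endothelial nuclei, and after thinning to 1000 UMIs in 67.5, 47.3 and 0.5%. Pde3a, which breaks down cyclic nucleotides, stood at 4099, 5269, 2035 and 3503 CPM against 2341, 1118, 2338 and 2528 CPM, with library 3 the exception to the higher smooth muscle level.

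Pericyte genes outside both selections were lower in smooth muscle than in restricted pericytes for 5 of 10 measured members in library 4 (10.9% of all genes). In libraries 1, 3 and 4 Vtn, Steap4 and Cox4i2 were lower (2.89% of all genes). None was higher in library 4 (10.6%) or in libraries 1, 3 and 4 (2.11%). Steap4, a metalloreductase used as a pericyte marker, had 5 UMIs where 83.7 were expected. Cspg4, the NG2 proteoglycan of mural cells, stood at 418, 176, 158 and 280 CPM compared with 371, 95.2, 195 and 228 CPM, and Mcam, a mural and endothelial adhesion molecule, at 606, 527, 294 and 332 CPM against 605, 524, 470 and 500 CPM. The intervals of Cspg4 spanned 1 (0.901 to 1.45) and those of Mcam did not (0.607 to 0.909).

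Genes outside the lists with the largest excess over restricted pericytes, apart from those already named, were Zbtb7c, Ntrk3, Slit3, Cap2, Kank1, Cnnm2 and Sox6. Ntrk3, the neurotrophin 3 receptor, stood at 878, 1668, 543 and 840 CPM in smooth muscle against 20.4, 71.4, 0 and 17.6 CPM, and was found in 38 smooth muscle nuclei and 1.41% of endothelial nuclei. Zbtb7c, a zinc finger protein, stood at 690, 351, 158 and 339 CPM against 5.84, 23.8, 0 and 0 CPM. Slit3, a secreted guidance ligand, stood at 962, 87.8, 339 and 365 CPM against 5.84, 35.7, 13.4 and 17.6 CPM. All 3 were higher in each of libraries 1, 3 and 4. Cap2 and Sox6 were also high in cardiomyocytes, and in the 36 nuclei their observed over expected was 26.8 (17.8 to 38.7) and 10.8 (8.02 to 14.2).

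Among the genes with the largest deficit against restricted pericytes were Pde8b, Adgrl3, Pde7b, Rerg, Ptn, Abca8a, Xkr4, Agmo, Art3, Slc12a2 and Plxdc2. Adgrl3, an adhesion G protein-coupled receptor, stood at 62.7, 0, 158 and 124 CPM in smooth muscle against 1595, 428, 1586 and 1615 CPM. Plxdc2, a plexin domain membrane protein, stood at 146, 87.8, 113 and 208 CPM against 2338, 512, 1162 and 1949 CPM. Pde7b and Pde8b, which break down cyclic AMP, had 16 UMIs where 339 were expected and 2 where 90.3 were. Against the gate the lowest genes were others, led by Mlip, which cardiomyocytes also expressed. It stood at 20.9, 0, 90.5 and 26.1 CPM in smooth muscle, 215 to 1510 CPM in the gate and 326 to 1328 CPM in cardiomyocytes.

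**Figure D3:**
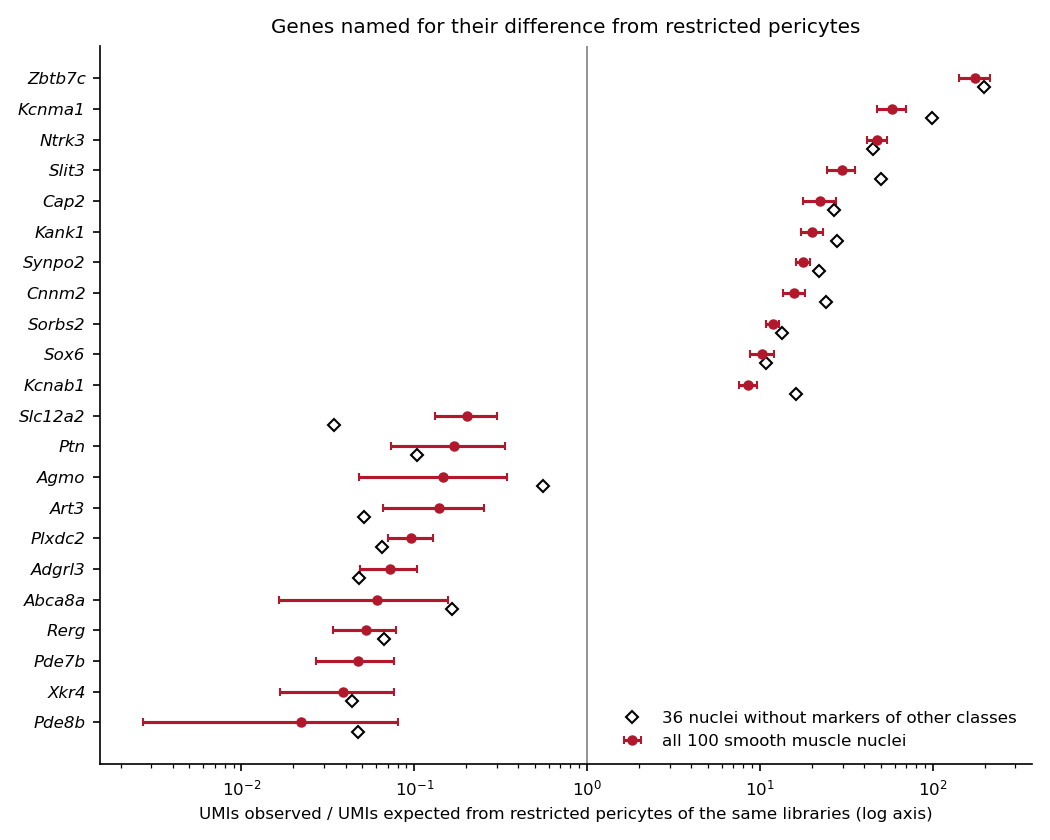
UMIs observed in smooth muscle nuclei divided by those expected from restricted pericytes of the same libraries (log axis), for the genes chosen by the size of that difference. Red points are all 100 nuclei, with 95% Poisson intervals of the observed UMIs only. Open diamonds are the 36 nuclei left by the filter on other classes, which did not cover fibroblast markers. No diamond is drawn where these nuclei had no UMI. Zbtb7c lies at 174 and Pde8b at 0.0221, and Actg2 cannot be shown because restricted pericytes had no UMI of it.

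In the Notch pathway, by which endothelium instructs mural cells, members differed in direction. Against restricted pericytes 2 of 9 measured members were higher and 2 lower in library 4 (10.6% and 10.9% of all genes). In libraries 1, 3 and 4, 1 was higher and 1 lower (2.11% and 2.89% of all genes). Jag1, a ligand, was higher in libraries 1, 3 and 4 and lower in library 2. It stood at 314, 87.8, 204 and 169 CPM against 117, 202, 80.6 and 70.2 CPM, with 2.29 observed over expected (1.71 to 3.02). Heyl, a target transcription factor, stood at 126, 0, 45.2 and 78.1 CPM against 339, 71.4, 202 and 281 CPM. Hey2, its relative, had 23 UMIs where 4.99 were expected. Notch3, the mural receptor, stood at 732, 615, 543 and 352 CPM compared with 818, 309, 806 and 755 CPM, and at 80.4 to 126 CPM in the gate. Its value against restricted pericytes was 0.618 (0.512 to 0.739), and 0.881 (0.617 to 1.22) in the 36 nuclei.

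In the elastic and collagen list 4 of 21 measured members were higher and 6 lower than in restricted pericytes in library 4, and 1 higher and 3 lower in libraries 1, 3 and 4, where 10.6% and 10.9%, and 2.11% and 2.89%, of all genes were. Ltbp1, which tethers latent TGF-beta to elastic fibres, stood at 1464, 878, 362 and 1159 CPM compared with 108, 167, 94.1 and 96.6 CPM, and Eln, elastin, at 1025, 702, 90.5 and 482 CPM against 190, 131, 134 and 158 CPM. Ltbp1 was higher in all 4 libraries and Eln in libraries 1, 2 and 4, while Eln in library 3 was lower. The collagens Col5a1, Col6a1 and Col6a2 were lower, and Col6a2 stood at 188, 87.8, 136 and 169 CPM against 599, 393, 538 and 562 CPM. Fibroblast marker sums were also higher in restricted pericytes than in smooth muscle in every library, and their part in these differences was not tested.

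In the basement membrane list 7 of 21 were higher and 2 lower in library 4 (10.6% and 10.9% of all genes). In libraries 1, 3 and 4 Col18a1, Lama5 and Dmd were higher and Lama2 and Nid1 lower (2.11% and 2.89% of all genes). Lama5, a laminin chain of vessel walls, stood at 418, 263, 90.5 and 254 CPM against 11.7, 107, 6.72 and 70.2 CPM, with 5.13 observed over expected (3.97 to 6.53). Lama2, the laminin chain of muscle fibres, stood at 795, 263, 317 and 228 CPM against 2136, 678, 1156 and 992 CPM, with 0.287 (0.231 to 0.353). Dmd, dystrophin, is abundant in cardiomyocytes as well, at 7394, 3290, 5776 and 6313 CPM. In smooth muscle it stood at 6358, 3425, 3053 and 3699 CPM, and its observed over expected was 5.93 (5.58 to 6.30) in all nuclei and 5.71 (5.05 to 6.42) in the 36.

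In PDGF and TGF-beta signalling 5 of 20 members were higher and none lower in library 4 (10.6% and 10.9% of all genes), and only Smad6 was higher in libraries 1, 3 and 4 (2.11% of all genes). Smad6 had 18 UMIs in all and none in the 36 nuclei. Tgfb3, a TGF-beta ligand, stood at 335, 0, 45.2 and 260 CPM against 32.1, 11.9, 26.9 and 8.78 CPM, from 18 nuclei, with 22.4% of its UMIs from 1 nucleus. In the remaining lists the counts in library 4 stood beside shares of 10.6% higher and 10.9% lower over all genes. Higher and lower members were 0 and 1 of 12 for immediate early genes, 0 and 1 of 11 for heat shock, 1 and 0 of 13 for hypoxia and 1 and 2 of 13 for inflammation. In libraries 1, 3 and 4 only Rela, an NF-kappaB subunit, was called among these lists, and it was lower. Over all genes 2.11% were higher and 2.89% lower there. Of the energy metabolism regulators, 3 of 9 were higher and 1 lower in library 4, and none was called in libraries 1, 3 and 4. Esrrg, an orphan nuclear receptor of oxidative tissues, had 8 UMIs in the smooth muscle nuclei and Esrrb, its relative, had 1, while cardiomyocytes stood at 99.7 to 340 CPM of Esrrg.

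**Figure D4:**
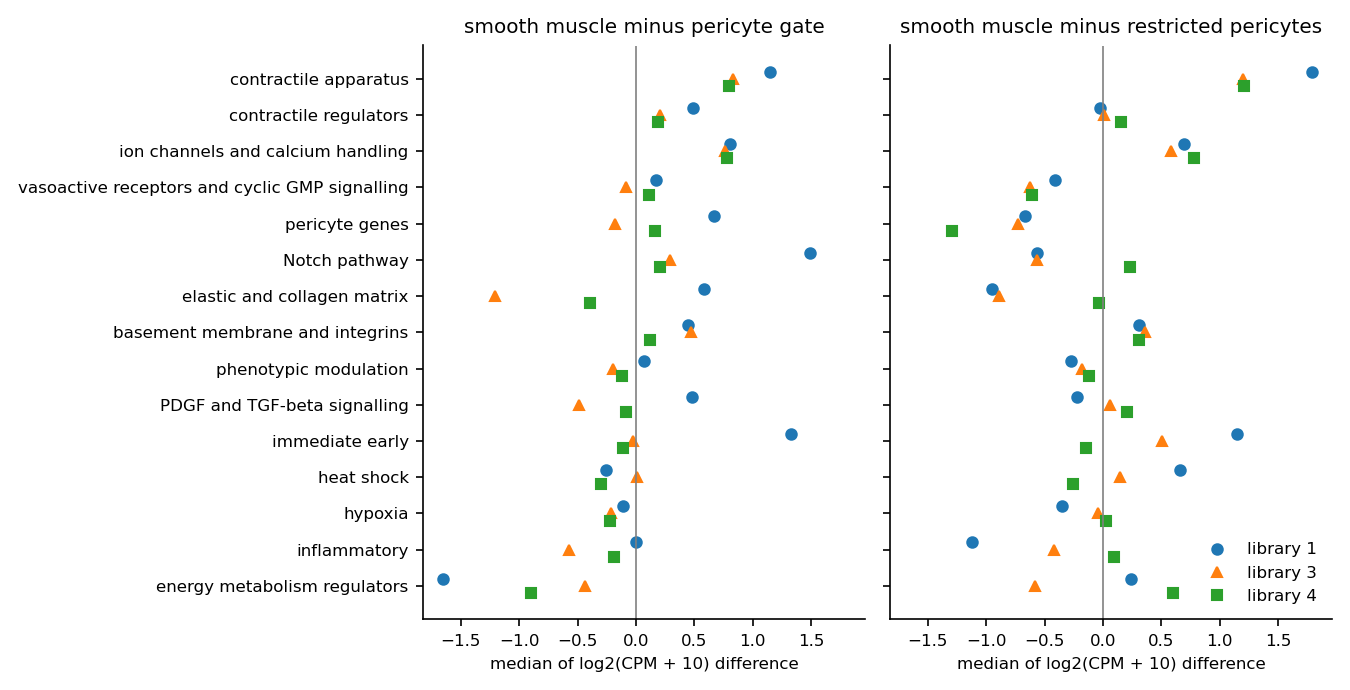
Median over the members of each gene list of the log2(CPM + 10) difference, smooth muscle minus the pericyte gate (left) and minus restricted pericytes (right), for libraries 1 (circles), 3 (triangles) and 4 (squares). The contractile list lies highest in libraries 3 and 4 on both sides, and the pericyte genes lie at or below -0.67 on the right.

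Between libraries, smooth muscle nuclei differed in gene lists that also differed in restricted pericytes and in all other nuclei. Members of the phenotypic modulation list, which holds matrix, inflammation and growth genes of modulated smooth muscle, summed to 3430, 5620, 12982 and 7104 CPM in libraries 1 to 4. In restricted pericytes the sums were 1972, 8685, 13437 and 7427 CPM, and over all other nuclei 1377, 8984, 13306 and 7962 CPM. Against restricted pericytes 2 of its 21 measured members were higher and 2 lower in library 4 (10.6% and 10.9% of all genes). In libraries 1, 3 and 4, 1 was higher and 1 lower (2.11% and 2.89% of all genes). The lower gene was Mmp14, a membrane-bound matrix protease. The median member lay 2.13 log2 units below the 4-library mean in library 1 and 1.31 above it in library 3, and in restricted pericytes 2.24 below and 1.32 above. Of 2054 genes measured in smooth muscle, 1103 (53.7%) were at least 2-fold higher in one of libraries 1, 3 and 4 than in another. Of the same 2054 genes, 156 (7.59%) were at least 2-fold higher in library 1 than in library 4 and 433 (21.1%) at least 2-fold lower.

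Spp1, osteopontin, shows the pattern for a single gene. It stood at 20.9, 1317, 4433 and 905 CPM in smooth muscle, 49.7, 2760, 4609 and 1326 CPM in restricted pericytes, and 18.8, 3278, 4200 and 1518 CPM in all other nuclei. Library 3 was highest in all 3 groups, the library 1 value of smooth muscle is a single UMI, and 26.2% of the Spp1 UMIs of smooth muscle came from 1 nucleus. Estimated RNA from outside the nucleus was 67.4% in smooth muscle of library 3. Observed over expected against restricted pericytes was 0.796 (0.715 to 0.883) in all nuclei and 0.566 (0.390 to 0.795) in the 36, of which library 3 holds 1. Timp3, an inhibitor of matrix proteases, stood at 335, 0, 362 and 527 CPM, with 27.4% of its UMIs from 1 nucleus.

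Heat shock genes summed to 816, 2107, 3573 and 2116 CPM in smooth muscle and to 500, 2165, 3433 and 2721 CPM in restricted pericytes, and both were lowest in library 1 and highest in library 3. Immediate early genes, which respond quickly to a stimulus, were higher in smooth muscle than in restricted pericytes and all other nuclei in libraries 1 and 3. They summed to 1736 CPM (1383 to 2152) in smooth muscle of library 1, against 424 CPM (358 to 499) in restricted pericytes and 500 CPM (490 to 510) in all other nuclei of that library. In library 3 the sums were 1176, 786 and 1048 CPM, and the smooth muscle interval there (878 to 1542 CPM) overlapped that of restricted pericytes (650.1 to 942 CPM) and held the level of all other nuclei. In library 4 the sums were 964, 939 and 1135 CPM, and in library 2 they were 1405, 1737 and 1969 CPM. Nr4a1, an orphan nuclear receptor of this list, stood at 314, 87.8, 45.2 and 26.1 CPM in smooth muscle, from 14 nuclei, and at 14.6, 23.8, 0 and 26.3 CPM in restricted pericytes. The sum of the whole immediate early list in smooth muscle of library 1 rests on 83 UMIs in 30 nuclei. Whether the vessel type sampled or the isolation differed was not tested.

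The contractile list summed to 32290, 15016, 19631 and 23344 CPM in smooth muscle and 7764, 9351, 7720 and 8542 CPM in restricted pericytes. Smooth muscle was thus above restricted pericytes in every library, and library 1 lay highest, the library whose estimated RNA from outside the nucleus was lowest by the first estimate (17.0%) and not by the second (64.1%). Gucy1a1 was 3.67 times (2.63 to 5.13, conditional binomial interval) higher in library 1 than in library 4, and Mylk 2.34 times (1.78 to 3.07). Actg2 was 1.61 times (1.09 to 2.34) higher in library 1, and the log2 difference of 0.67 went to -0.02 when the nuclei with other markers were left out.

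**Figure D5:**
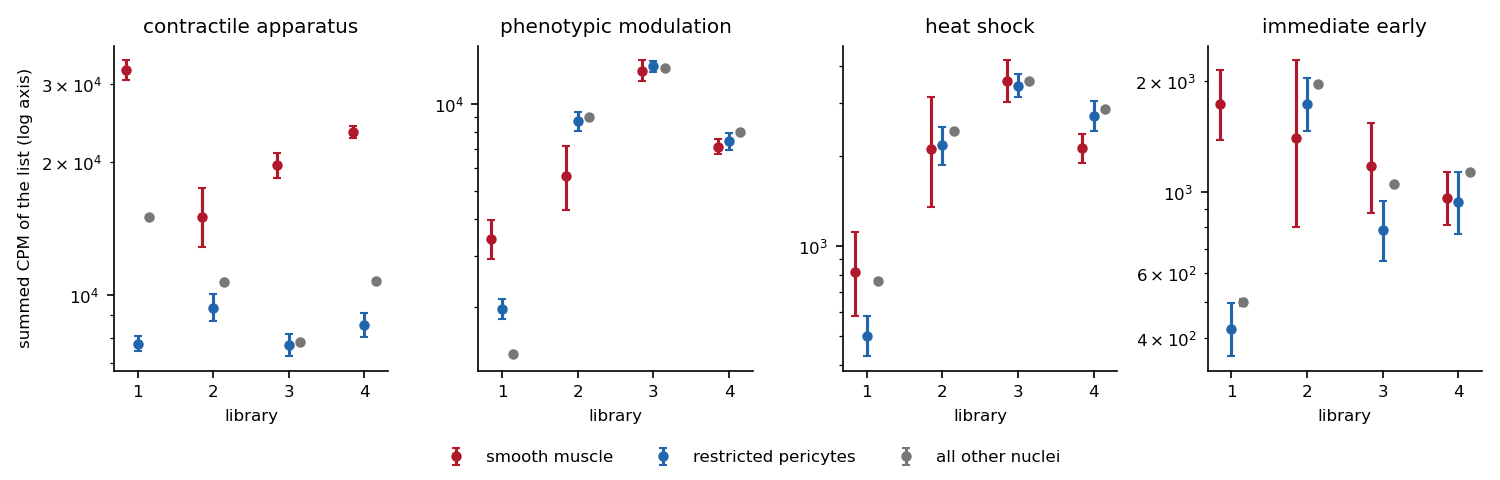
Summed CPM (log axis, 95% Poisson intervals) of 4 gene lists by library in smooth muscle nuclei, restricted pericytes and all other nuclei. Phenotypic modulation and heat shock genes are lowest in library 1 and highest in library 3 in all 3 groups. Contractile genes lie above restricted pericytes in every library, and immediate early genes in library 1 stand at 1736 CPM in smooth muscle and 424 CPM in restricted pericytes.

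The 100 nuclei were not uniform. Variance over that expected from counting alone, within libraries 1, 3 and 4, had a median of 1.33 over 1760 genes and exceeded 3 for 154. The highest value was that of Xirp2, a protein of striated muscle, at 26.0, with a UMI in 23 of 94 nuclei. It was followed by Ankrd1, 17.9, Plod2, 16.1, Thsd7a, 16.1, and Spp1, 15.7. Single nuclei held 34.6% of the UMIs of Ankrd1, a stress protein of heart muscle, 49.3% of those of Plod2, a collagen-modifying enzyme, and 60.4% of those of Thsd7a. Ankrd1 stood at 966 to 2924 CPM in cardiomyocytes. Dmd and Kalrn, a regulator of small GTPases, had values of 15.7 and 13.2 and were seen in 84 and 77 of 94 nuclei.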

How the data were processed

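Nuclei from Dounce-homogenised rat heart were sequenced with a 10x 3′ v3 kit, per the labels' protocols. The deposited file holds raw UMI counts of 32623 genes in 48637 barcodes, made with Cell Ranger 5.0.1 per the file headers, while the submitters' processing notes name Cell Ranger 6.1.1, Seurat and the rn7 build. The gene table has 6776 symbols that begin with AABR, contig names of an older assembly, so no coordinates were taken from it. A barcode was kept from 500 UMIs and 300 genes upward when mitochondrial UMIs made up no more than 10%. No doublet caller was run, and nuclei with markers of other classes were left out as an alternative. That filter did not cover fibroblast or lymphatic endothelial markers.

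Counts were summed per class and library and scaled to CPM of all UMIs, and genes needed 30 UMIs over both classes and all 4 libraries. Feature AC134224.3 alone took 6.78 to 11.1% of the smooth muscle UMIs. CPM carry exact Poisson intervals, shares Clopper-Pearson intervals and ratios exact conditional binomial intervals, all at 95%. Observed over expected values carry Poisson intervals of the observed UMIs alone. With no map from barcode endings to samples, a between-condition test could not be made. The call function was tested on simulated data. The members, the 15 gene lists (329 of 338 symbols found) and the rules were chosen with earlier results of these data known. Genes named by rule were the 12 highest and 12 lowest against pericytes with at least 100 UMIs, those that differed most between libraries, the 8 most dispersed that smooth muscle itself expresses well, and the 2 highest and lowest of each list. The text describes only part of the genes that met these rules, and a few are not reported here. Other genes named were chosen after their values were seen. Xirp2 met the rule for differences between libraries but not that for dispersion, and its dispersion was described after its value was seen. Restricted pericytes, calls in 3 libraries and all other nuclei as comparator were added after the data were seen. Python 3.11.15, numpy 2.4.6, scipy 1.17.1, pandas 2.3.3 and matplotlib 3.10.9 were used.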

Additional observations from a re-analysis of the deposited data

How the results depend on the processing

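The treatment of nuclei that hold markers of another class moved most values, and it left 17 smooth muscle nuclei in library 4. Without them in either class, the shares became 0.676% in library 1 and 1.60% in library 4, and the genes called against the gate in library 4 became 720 higher and 2607 lower. List medians against the gate became 1.61 for contractile genes, -1.34 for regulators, -0.16 for ion channels, -0.66 for vasoactive receptors, -2.42 for pericyte genes, -1.41 for Notch, -1.76 for elastic and collagen matrix, -0.55 for basement membrane, -1.42 for phenotypic modulation, -1.82 for PDGF and TGF-beta, -1.63 for immediate early, -1.23 for heat shock, -1.90 for hypoxia and -1.99 for inflammation. Differences against the gate that turned direction were Angpt1 at 0.57, Dmd at 3.41, Esrrg at 1.60, Igfbp5 at 0.28, Ldb3 at 2.36, Ppargc1a at 0.94, Ryr2 at 0.56, Thsd7a at -1.15 and Zfp385d at -1.07. Of library 1 minus library 4, Actg2 turned to -0.02 and Vcl to -0.25. List levels against the mean of the 4 libraries became 0.87 (contractile), 1.42 (regulators) and 0.63 (ion channels) in library 4, and 1.15 (regulators), -0.14 (matrix) and 0.27 (basement membrane) in library 1. Against restricted pericytes, 1528 genes were lower. Of the 15 list medians there, 11 moved, that of basement membrane turned to -0.31 and 3 stayed. With pericytes that had no Pdgfra and a 0.2% marker share, Dmd turned to 0.84, Mcam to -0.56, Notch3 to -0.48 and Xirp2 to 0.09, and the medians of vasoactive receptors and pericyte genes became -0.34 and -0.81. At a pseudocount of 1 CPM 1155 genes were higher and 4197 lower than in the gate, and the inflammation and energy medians became -0.90 and -1.75. With no minimum of UMIs, 1612 genes were higher and 1456 lower than in restricted pericytes, and the energy level in library 4 became 0.10. Restricted pericytes as comparator gave 695 lower genes, and calls in libraries 1, 3 and 4 gave 141 higher and 232 lower. The share of library 2 became 0.184% at 1000 UMIs, 0.147% after thinning and 0.0137% at a 0.5% marker share, where library 4 became 0.506%. At 1000 UMIs the inflammation levels became 0.12 in library 1 and 1.22 in library 4. Free RNA subtraction gave regulators 0.90 in library 1 and 1.05 in library 4, matrix 1.29 and phenotypic modulation 0.07 in library 1, and turned Actg2 to -0.09. Against the gate the planned subtraction was not run, because the estimated free RNA reached 100% there. Added after the data were seen, a share estimated without cardiomyocyte markers gave 2110 higher and 4019 lower genes against the gate, and subtraction against restricted pericytes gave 923 higher and 1324 lower. With that subtraction 9 list medians against restricted pericytes moved and 6 stayed. The cause of these shifts was not tested. Fold differences in library 4 do not depend on the other libraries. The genes tested there do, because the minimum of 30 UMIs was counted over all 4 libraries. Without library 4 no library had 50 nuclei of each class. With each library left out in turn, no list median against the gate was counted as moved. Each is a median over the 4 libraries, so it must stay within the range of the library values whichever is left out. The check therefore cannot show that these medians are stable. No paired analysis was possible because each sample has 1 library and barcode endings are not tied to samples.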
